A study of Homo sapiens with 6 samples.

Results

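The aldo-keto reductases AKR1A1, AKR1B1, AKR1B10, AKR1B15, AKR1C1, AKR1C2, AKR1C3 and AKR1C4 were examined by RNA-seq in T98G cells, an established glioblastoma line, without and with CBX8. The 8 genes were chosen by name, with their response to CBX8 already known from the same libraries, so their difference between the conditions is given as a description. The fit over all genes includes them, and whether each passed its threshold is stated only as part of that description and supports nothing. They are 8 of the 57133 gene symbols in the count table, and 7 of them had enough counts to enter the fit over 14461 genes, AKR1C4 being the exception. All 6 libraries came from T98G cells in which CBX8 had been disrupted with CRISPR and selected with puromycin. The line was then transduced with a doxycycline-inducible lentiviral vector together with the rtTA transactivator, and stable lines were selected with puromycin and hygromycin. The vector was empty in the 3 CBX8 KO libraries and carried WT CBX8 in the 3 WT CBX8 re-expression libraries. Doxycycline was given at 1 µg/ml for 72 h in both conditions. The labels give the re-expression libraries a wild-type genotype, while their titles and the study's methods describe CBX8 put back into the KO line. No unedited cells were among the libraries, the methods do not say whether the KO line is 1 clone, and an effect of CBX8 and a difference between the separately selected stable lines cannot be told apart.

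Aldo-keto reductases are NADPH-dependent enzymes that reduce aldehydes and ketones to alcohols. AKR1A1 is the broadly expressed aldehyde reductase. AKR1B1 is aldose reductase, which turns glucose into sorbitol as the first step of the polyol pathway, and AKR1B10 and AKR1B15 are its close relatives, AKR1B10 being active on retinal. The AKR1C enzymes are hydroxysteroid dehydrogenases: AKR1C1 inactivates progesterone, AKR1C2 inactivates dihydrotestosterone, AKR1C3 makes testosterone and acts on prostaglandins, and AKR1C4 is mainly a liver enzyme. Several of these genes, AKR1B10 and AKR1C1 to AKR1C3 among them, are known targets of NRF2, the transcription factor of the oxidative stress response. CBX8 is a chromobox subunit of Polycomb repressive complex 1, which binds H3K27me3 and represses genes.

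The genes lie at 3 loci of hg38. The AKR1C genes lie together at chr10:4963253-4983283 (AKR1C1, plus strand), chr10:4987775-5018031 (AKR1C2, minus strand), chr10:5035354-5107686 (AKR1C3, plus strand) and chr10:5195462-5218949 (AKR1C4, plus strand), and an exon of AKR1C4 overlaps a gene on the opposite strand. The AKR1B genes lie at chr7:134442356-134459284 (AKR1B1, minus strand), chr7:134527567-134541412 (AKR1B10, plus strand) and chr7:134549110-134579875 (AKR1B15, plus strand). AKR1A1 stands alone at chr1:45550543-45570049 on the plus strand.

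The AKR1C genes, and AKR1B10 and AKR1B15, are so alike that part of their reads has no unique origin, which bears on their counts. Coding sequences of AKR1C1 and AKR1C2 were 98% identical, with 19 mismatches in 972 aligned bases. AKR1C3 was 91.5% identical to AKR1C1 and 91% to AKR1C2, and AKR1C4 was 87.8 to 88.5% identical to the other AKR1C genes. AKR1B10 and AKR1B15 were 93.5% identical, whereas AKR1B1 shared 77.1% with AKR1B10. The stretch that best tells AKR1C1 and AKR1C2 apart, bases 103 to 162 of the coding sequence counted from the A of the start codon, is shown with its 10 differing bases in capitals:
AKR1C1: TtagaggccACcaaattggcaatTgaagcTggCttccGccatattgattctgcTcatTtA
AKR1C2: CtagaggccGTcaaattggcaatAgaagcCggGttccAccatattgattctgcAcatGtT

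**Figure D1:**
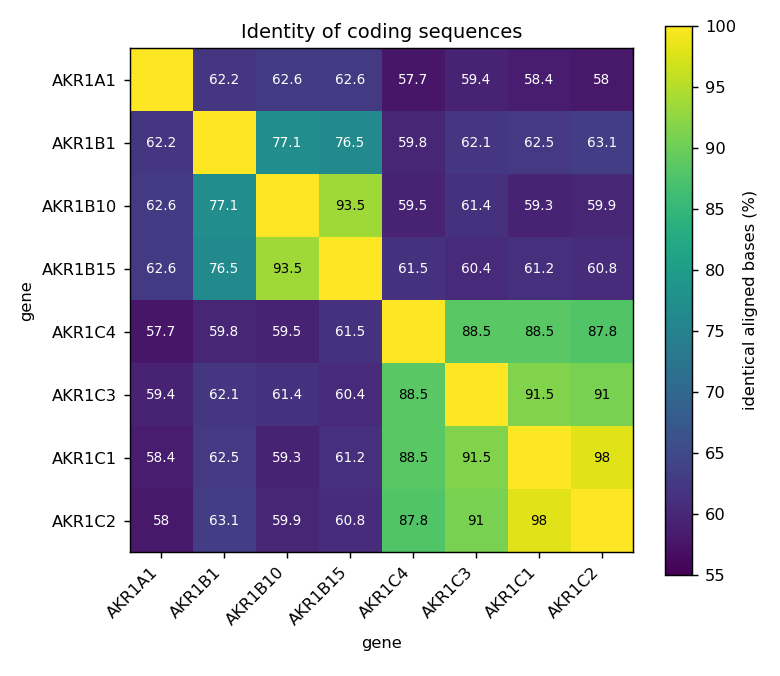
Identity of the coding sequences of the 8 genes, as the percentage of aligned bases that are identical (color and printed value, genes on both axes). The AKR1C genes form one block of 87.8% or more, AKR1B10 and AKR1B15 a pair at 93.5%, and AKR1A1 shares 62.6% or less with every other gene.

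Windows of 100 bases, the length of 1 read, were compared between the canonical transcript of each gene and the annotated transcripts of all other genes. Of the windows of AKR1C2, 27.8% also occurred in another gene, mostly AKR1C1. The share was 12.6% for AKR1C1, 7.82% for AKR1C3, 1.97% for AKR1B10 and 1.1% for AKR1B15. It was 0 for AKR1B1 and AKR1A1, which had no exact match of this length in an annotated transcript of another gene. Matches with mismatches or outside annotated transcripts were not searched. How the deposited counts treated reads with more than 1 match is not given in the sources used here, so the split between AKR1C1, AKR1C2 and AKR1C3 is uncertain.

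The sequence before the start differed in kind between the members. The upstream bases of AKR1C1, AKR1C2, AKR1C3 and AKR1B1 are shown because they contrast a CpG-poor AKR1C start with the CpG-rich start of AKR1B1. They come from RefSeq (GRCh38.p14) and run 5′ to 3′ on the strand of the gene towards its start. Annotated exons of coding transcripts are left out, and CpG is in capitals. For AKR1C2 this cut ends the bases short of its start. They hold 0 CpG, while the AKR1C2 window described below holds 3. The bases are chr10:4963165-4963414 (plus strand) for AKR1C1, chr10:5004015-5004107 (minus strand) for AKR1C2, chr10:5048531-5048780 (plus strand) for AKR1C3 and chr7:134459103-134459350 (minus strand) for AKR1B1:
AKR1C1: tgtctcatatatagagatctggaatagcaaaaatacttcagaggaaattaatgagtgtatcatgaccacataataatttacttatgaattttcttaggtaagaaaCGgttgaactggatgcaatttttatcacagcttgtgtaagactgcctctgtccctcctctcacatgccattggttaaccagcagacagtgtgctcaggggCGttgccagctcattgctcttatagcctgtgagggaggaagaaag
AKR1C2: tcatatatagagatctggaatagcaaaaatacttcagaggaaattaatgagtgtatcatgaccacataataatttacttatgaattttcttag
AKR1C3: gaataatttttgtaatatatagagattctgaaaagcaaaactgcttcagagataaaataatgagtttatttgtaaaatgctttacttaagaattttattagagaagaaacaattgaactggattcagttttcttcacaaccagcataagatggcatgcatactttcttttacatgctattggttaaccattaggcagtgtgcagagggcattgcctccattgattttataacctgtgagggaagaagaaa
AKR1B1: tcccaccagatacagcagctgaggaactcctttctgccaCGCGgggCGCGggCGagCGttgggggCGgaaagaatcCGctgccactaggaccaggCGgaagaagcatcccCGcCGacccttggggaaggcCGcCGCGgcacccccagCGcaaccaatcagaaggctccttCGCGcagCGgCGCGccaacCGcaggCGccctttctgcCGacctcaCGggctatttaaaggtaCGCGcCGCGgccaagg

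Over 250 bases before their starts, AKR1C1 and AKR1C2 were 99.6% identical, with 1 mismatch in 246 aligned bases, whereas other pairs of AKR1C starts shared 67.7 to 78.7%. In windows from 250 bases before to 50 bases after the start, AKR1C1 and AKR1C2 held 3 CpG each, AKR1C4 held 1 and both AKR1C3 starts held 0. AKR1B1 held 33 at the start shown and 18 at its other start, and AKR1A1 held 21. The median over 35116 such windows was 14. The same windows were searched on both strands for TGACNNNGC, the core of the antioxidant response element that NRF2 binds. It was found in 0 of the 8 windows of the 6 members with a window, and in 13.3% of all 35116 windows. AKR1B10 and AKR1B15 had no window. The AKR1C1 and AKR1C2 windows are near copies and the AKR1B1 windows overlap, so the 8 are not independent. Sequence outside these windows was not searched, so nothing is read from this count.

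Totals lay between 7950190 and 8659796 counts per library. CBX8 itself was counted 96, 104 and 83 times in CBX8 KO, against 30372, 31408 and 27791 times after re-expression. Reads from the vector and from the endogenous gene were not separated. Of the markers of the line, VIM lay at 2700 to 2910 CPM (counts scaled to the TMM-normalized library size), NES had at most 4 counts, and S100B and SOX2 had 0. The other markers of the line separated by condition. CD44 lay at 2800 to 3060 CPM without CBX8 and 2370 to 2620 CPM with it. TNC lay at 58.9 to 67.6 against 155 to 175 CPM, GFAP at 1.66 to 2.15 against 2.26 to 3.43 CPM and OLIG2 at 1.66 to 1.92 against 2.26 to 4.34 CPM. The part of these markers in the results was not tested. Of the markers of other cells, CD68 had 16 to 24 counts, and PTPRC, EPCAM, APOA1, PECAM1, CDH5, ALB and KRT5 had at most 4 counts in a library.

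Upon WT CBX8 re-expression, the summed aldo-keto reductase transcripts stood at 53.8% of the CBX8 KO level. The 8 genes together stood at 2139, 2076 and 1955 CPM in CBX8 KO, and at 1150, 1058 and 1110 CPM once CBX8 was re-expressed. AKR1C1, AKR1C2, AKR1C3 and AKR1B10 were lower by the most, and AKR1B1 by less. Of the 7 genes tested, 5 passed FDR < 0.05 as lower and 0 as higher. Of all 14461 genes, 6.63% passed as lower and 6.23% as higher, and among the 2240 genes with a mean of at least 100 CPM, as all 5 of these members had, 18.3% passed as lower. Since the members were chosen with this contrast known, nothing is read from their count. The same 5 had all re-expression libraries below all CBX8 KO libraries, as did 14.4% of all genes. In bulk RNA, fewer cells that express a gene and less RNA per cell cannot be told apart.

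**Figure D2:**
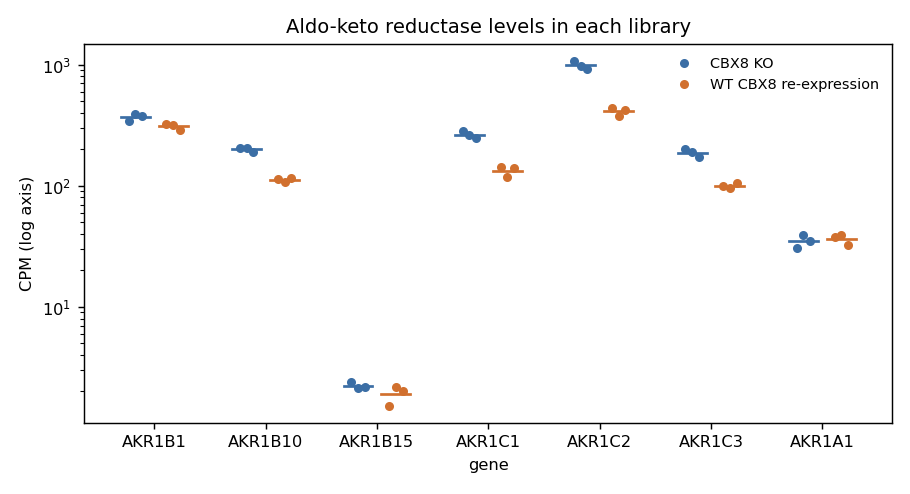
Level of each tested gene in CPM (log axis) in the 3 CBX8 KO libraries (blue) and the 3 WT CBX8 re-expression libraries (orange), with a point per library and a line at the mean of the condition. The points of AKR1B1, AKR1B10, AKR1C1, AKR1C2 and AKR1C3 separate by condition, and those of AKR1B15 and AKR1A1 overlap.

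AKR1C2, with the most counts of the family in each condition, had 8473, 8286 and 7255 counts in CBX8 KO. Upon re-expression it had 3703, 3331 and 3562 counts. In CPM these were 1069, 984.5 and 928.5 against 435.2, 380.5 and 424.1. Every re-expression library held less than every KO library, with no overlap. The mean went from 994.1 ± 70.93 (SD, n = 3) to 413.3 ± 28.91 CPM (SD, n = 3), a log2 fold change of -1.27 (standard error 0.058). Among the genes tested, 20 had a lower log2 fold change.

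AKR1C1, the progesterone-inactivating enzyme, had 2260, 2203 and 1937 counts in CBX8 KO and 1208, 1025 and 1175 counts upon re-expression. In CPM these were 285.2, 261.7 and 247.9 against 142.0, 117.1 and 139.9, and the conditions did not overlap. The mean went from 265.0 ± 18.87 (SD, n = 3) to 133.0 ± 13.8 CPM (SD, n = 3), or 50.2% of the KO level, and the log2 fold change was -0.995 (standard error 0.063).

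AKR1C3, the enzyme that makes testosterone and acts on prostaglandins, had 1581, 1597 and 1348 counts in CBX8 KO and 840, 832 and 889 counts upon re-expression. In CPM these were 199.5, 189.7 and 172.5 against 98.73, 95.05 and 105.8. Every re-expression library was again below every KO library. The mean went from 187.3 ± 13.68 (SD, n = 3) to 99.87 ± 5.484 CPM (SD, n = 3), a log2 fold change of -0.91 (standard error 0.058).

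AKR1C4, the liver enzyme, was at 0 counts in all libraries except WT CBX8 re-expression replicate 3, which had 2. A count of 0 allows up to 3 counts, or 0.342 to 0.383 CPM depending on the library, and no fold is given. The other 3 AKR1C genes summed to 1554, 1436 and 1349 CPM in CBX8 KO, and 676.0, 592.7 and 669.8 CPM once CBX8 was re-expressed. With AKR1C1 to AKR1C4 summed to 1 row before the fit, which sets aside the assignment of reads between them, the log2 fold change was -1.16 (standard error 0.058).

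The share of AKR1C2 among the AKR1C1 to AKR1C3 counts fell from 68.8, 68.6 and 68.8% in CBX8 KO to 64.4, 64.2 and 63.3% upon re-expression. The share of AKR1C1 went from 18.3 ± 0.0804% (SD, n = 3) to 20.5 ± 0.688% (SD, n = 3). That of AKR1C3 went from 12.9 ± 0.232% (SD, n = 3) to 15.5 ± 0.767% (SD, n = 3). None of the 3 shares overlapped between conditions, and all 3 rest on the assignment of shared reads. As parts of the same sum, they are not independent of each other. They restate the unequal fold changes of members chosen with this contrast known, so nothing is read from their separation.

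AKR1B10, the relative of aldose reductase that acts on retinal, had 1638, 1740 and 1498 counts in CBX8 KO and 967, 944 and 967 counts upon re-expression. In CPM these were 206.7, 206.7 and 191.7 against 113.7, 107.8 and 115.1, without overlap. The mean went from 201.7 ± 8.67 (SD, n = 3) to 112.2 ± 3.851 CPM (SD, n = 3), a log2 fold change of -0.85 (standard error 0.052). Summed with AKR1B15 before the fit, it was -0.84 (standard error 0.052).

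AKR1B1, aldose reductase itself, had 2734, 3300 and 2947 counts in CBX8 KO and 2729, 2766 and 2437 counts upon re-expression. In CPM these were 345.1, 392.1 and 377.2 against 320.8, 316.0 and 290.1. The lowest KO library lay just above the highest re-expression library, so the conditions were separate by a narrow margin. The mean went from 371.4 ± 24.03 (SD, n = 3) to 309.0 ± 16.48 CPM (SD, n = 3), a log2 fold change of -0.27 (standard error 0.054). The 95% intervals of the log2 fold changes were -0.38 to -0.16 for AKR1B1 and -0.95 to -0.74 for AKR1B10. They did not overlap, which is a description only, since the members were chosen with this contrast known. The genes are close neighbors on the chromosome. AKR1B10 made up 35.2 ± 1.98% (SD, n = 3) of the summed AKR1B1 and AKR1B10 counts in CBX8 KO and 26.7 ± 1.55% (SD, n = 3) upon re-expression.

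AKR1B15 was close to the detection limit, with 19, 18 and 17 counts in CBX8 KO and 13, 19 and 17 counts upon re-expression. The conditions overlapped, and the log2 fold change of -0.23 had a standard error of 0.29 and a 95% interval from -0.83 to 0.38. A decrease like that of AKR1B1 was not detectable at this depth.

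AKR1A1, the broadly expressed aldehyde reductase, had 243, 330 and 272 counts in CBX8 KO and 323, 345 and 271 counts upon re-expression. In CPM these were 30.67, 39.21 and 34.81 against 37.96, 39.41 and 32.26, and the conditions overlapped throughout. The log2 fold change was 0.07 (standard error 0.096) with a 95% interval from -0.13 to 0.26, which lies above the log2 fold changes of AKR1B10 and the AKR1C genes. Without CBX8 KO replicate 1, the lowest library, it was -0.02.

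**Figure D3:**
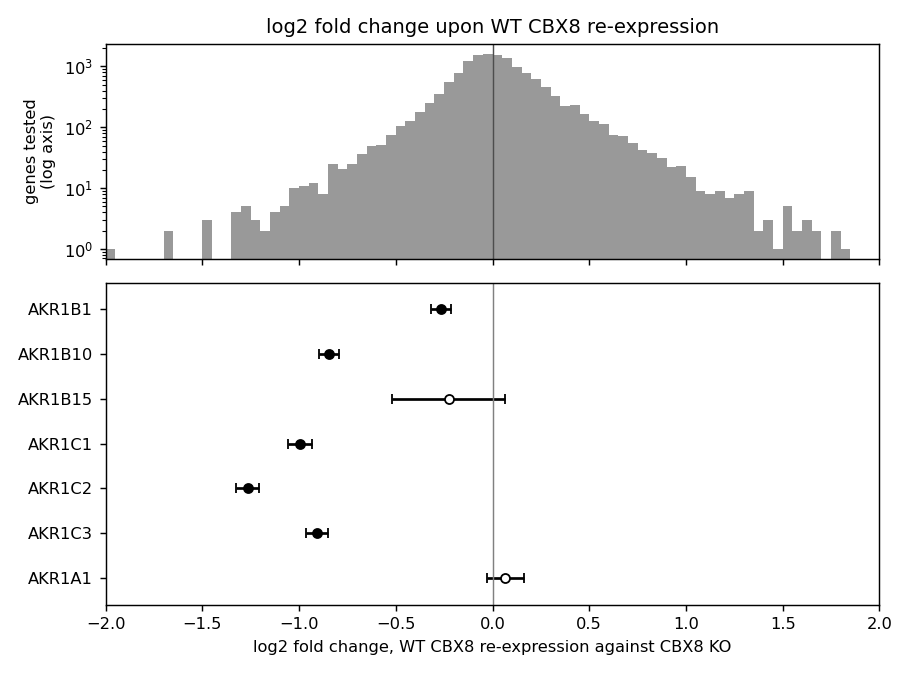
Log2 fold change of WT CBX8 re-expression against CBX8 KO. The upper panel counts the tested genes along the same axis (log axis, with 27 genes beyond the ends of the axis not drawn), and the lower panel shows the 7 tested members with their standard errors, filled where FDR < 0.05. AKR1C2 lies farthest left at -1.27 and AKR1A1 at 0.07.

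Per kilobase of coding sequence, the order of levels was the same in both conditions. In CBX8 KO it ran from AKR1C2 at 1023 ± 72.97 CPM per kb (SD, n = 3) through AKR1B1 at 390.6 ± 25.27 and AKR1C1 at 272.6 ± 19.42 to AKR1B10 at 212.1 ± 9.117 and AKR1C3 at 192.7 ± 14.07. The ranges of AKR1B10 and AKR1C3, 201.6 to 217.4 and 177.5 to 205.3, overlapped, so the order of this pair is not settled in CBX8 KO. AKR1A1 followed at 35.68 ± 4.366 and AKR1B15 at 2.162 ± 0.1355. Upon re-expression AKR1C2 stood at 425.2 ± 29.74, AKR1B1 at 324.9 ± 17.33 and AKR1C1 at 136.8 ± 14.2 CPM per kb. The ranges of AKR1C1 and AKR1B10, 120.5 to 146.1 and 113.4 to 121.1, overlapped there. The order depends on the length used: per kilobase of the canonical transcript, which is 6543 bases for AKR1C1 and 3215 for AKR1C2, AKR1B1 led upon re-expression with 227.0 and AKR1C2 followed with 128.5, and AKR1C1, at 40.5 in CBX8 KO, came below AKR1B10.

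Among 13581 genes, those nearest to the pattern of AKR1C2 over the 6 libraries, by Euclidean distance of centred log2 CPM, were A2M (0.241), RDH10 (0.336) and PREX2 (0.378). AKR1C1 lay at 0.339, with 2 genes nearer, and AKR1C3 at 0.459, with 14 nearer. A2M, which encodes a protease inhibitor, had 31.55, 28.99 and 27.0 CPM in CBX8 KO, and 11.4, 9.825 and 13.45 CPM once CBX8 was re-expressed. The nearest to AKR1B10 were SCD, the fatty acid desaturase, at 0.101, WISP1 at 0.15 and GCLM at 0.154. AKR1B1 was at 0.749 from AKR1B10, with 788 genes nearer. These distances describe 6 libraries that share 1 contrast.

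No other tested gene of the superfamily passed the threshold. Of 20 further symbols beginning with AKR, 11 had no count and 1 was tested. That gene, AKR7A2, the succinic semialdehyde reductase, had 27.39, 31.37 and 28.28 CPM in CBX8 KO, and 31.62, 29.47 and 25.24 CPM once CBX8 was re-expressed, with a log2 difference of -0.01 ± 0.098 (standard error, n = 3 per condition, adjusted p = 0.96 in edgeR). In the list of AKR superfamily genes outside the 1A, 1B and 1C subfamilies, which adds the KCNAB potassium channel subunits, 0 of 4 tested genes passed in edgeR or DESeq2, and 0 had an unadjusted p under 0.05 in edgeR. Of 13 tested enzymes that reduce carbonyls or enones outside the superfamily, 1 passed as lower and 0 as higher. That is 7.69% lower, against 6.63% of all genes. PTGR1, which reduces leukotriene and prostaglandin enones, fell from 546.7, 539.3 and 489.4 CPM to 410.8, 375.2 and 377.8 CPM (log2 fold change -0.44, adjusted p = 1.2e-06). The median log2 fold change of that list was 0.05, against 0.005 over all genes tested.

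The polyol pathway, which AKR1B1 opens, was listed with fructose and methylglyoxal handling. Of 10 tested genes of polyol, fructose and methylglyoxal handling, 1 passed as lower and 2 as higher. Over all genes, 6.63% passed as lower and 6.23% as higher. The median of the list was 0.12, and in DESeq2 0 of its genes passed as higher. SORD, which oxidizes the sorbitol made by AKR1B1 to fructose, fell from 81.41, 82.58 and 83.32 CPM to 59.59, 69.34 and 61.55 CPM (log2 fold change -0.38, adjusted p = 0.00013). KHK, the fructose kinase, rose from 1.01, 1.307 and 1.408 CPM to 2.586, 2.285 and 2.381 CPM (0.95, adjusted p = 0.045, and 0.07 to 0.147 with any 1 library left out). HAGH, a glyoxalase, rose from 12.57 to 17.15 CPM (0.45, adjusted p = 0.0072, and 0.0519 in DESeq2). GLO1, the first enzyme of that pathway, was at 233.7 CPM without CBX8 and 229.2 CPM with it (adjusted p = 0.77).

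Of 15 tested genes of steroid handling, 1 passed as lower and 1 as higher, with a median of 0.01. The lower share of 6.67% was near the 6.63% of all genes, and 6.23% of all genes passed as higher. SRD5A1, the steroid reductase that makes the substrate of AKR1C2, fell from 63.61, 66.77 and 64.12 CPM to 47.25, 47.18 and 47.38 CPM (log2 fold change -0.46, adjusted p = 1.3e-05). HSD3B7, a bile acid enzyme, rose from 1.94 to 4.676 CPM (1.26, adjusted p = 0.0017). NR3C1, the glucocorticoid receptor, had a log2 fold change of 0.05 (adjusted p = 0.52).

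Of 12 tested genes of prostaglandin handling, 4 passed as lower and 0 as higher. That is 33.3% lower against 6.63% of all genes, with a median log2 fold change of -0.12. The count fell to 2 with library size only, in DESeq2, and without CBX8 KO replicate 2 or 3 or WT CBX8 re-expression replicate 1 or 2, as PTGS2 and TBXAS1 then missed the threshold. PTGFR, the receptor of prostaglandin F2α, fell from 33.57, 33.15 and 29.95 CPM to 20.22, 18.62 and 20.71 CPM (log2 fold change -0.70, adjusted p = 7.6e-06). PTGR1 was described above. PTGS2, the inducible cyclooxygenase, had 2.903, 3.683 and 4.479 CPM against 1.528, 1.599 and 2.976 CPM, which overlap (-0.86, adjusted p = 0.049, and up to 0.19 under the alternatives). TBXAS1, thromboxane synthase, had a log2 fold change of -0.40 (adjusted p = 0.026, and up to 0.118 under the alternatives).

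Retinoid handling, to which AKR1B10 belongs by its activity on retinal, had 6 of 11 tested genes lower and 1 higher. That is 54.5% lower against 6.63% of all genes, with a median log2 fold change of -0.21. This list, like the other enzyme lists, was written with earlier results of these data known, so its share is no independent evidence. RDH10, which oxidizes retinol to retinal, fell from 89.48, 76.28 and 76.02 CPM to 38.44, 38.96 and 40.36 CPM (log2 fold change -1.04, adjusted p = 6e-11). ALDH1A1, which turns retinal into retinoic acid, fell from 26.13, 23.41 and 24.19 CPM to 13.4, 11.88 and 12.14 CPM (-0.98, adjusted p = 2.1e-07). STRA6, the membrane importer of retinol, fell from 69.29, 72.12 and 75.89 CPM to 41.96, 39.18 and 42.62 CPM (-0.81, adjusted p = 2.1e-09). In these genes every re-expression library lay below every KO library. CYP26B1, which degrades retinoic acid, fell from 86.39 to 59.23 CPM (-0.54, adjusted p = 2.2e-06). RARB (-0.48) and RDH11 (-0.21) also passed as lower and ALDH1A3 (0.42) as higher, these 3 being named after their values were seen. With library size only, in DESeq2, with the replicate block, at FDR < 0.01 and with any 1 library left out, RDH11 missed the threshold and 5 genes passed as lower. RXRA, the partner of the retinoic acid receptors, was at 140.3 CPM without CBX8 and 140.9 CPM with it (adjusted p = 0.96).

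**Figure D4:**
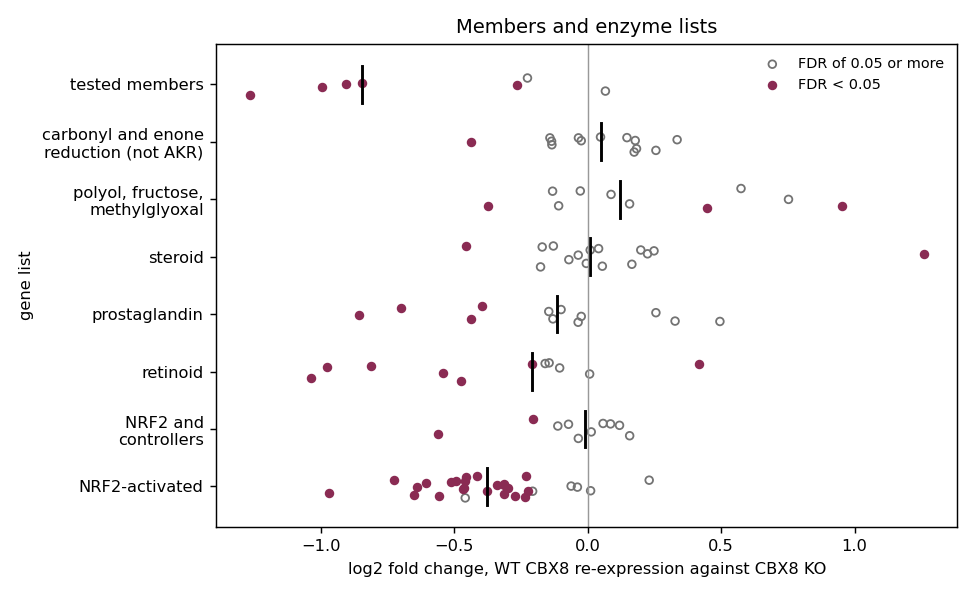
Log2 fold change of WT CBX8 re-expression against CBX8 KO for the tested members and the tested genes of 7 lists (rows), with a point per gene, filled where FDR < 0.05, and a bar at the median. The retinoid list has its median at -0.21 and the NRF2-activated list at -0.38, while the carbonyl and steroid lists lie at 0.05 and 0.01.

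Of 10 tested genes for NRF2 and its controllers, 2 passed as lower and 0 as higher, with a median of -0.01. That is 20% lower, against 6.63% of all genes. In this list 5 genes had a log2 fold change below 0 and 5 above. NFE2L2, which encodes NRF2, had -0.07 (standard error 0.049) and KEAP1 had 0.01 (standard error 0.061). Neither passed, and these 2 were named after their values were seen. SQSTM1, which sequesters the NRF2 inhibitor KEAP1, fell from 1052, 1111 and 1093 CPM to 735.4, 735.7 and 735.6 CPM (log2 fold change -0.56, adjusted p = 3.1e-09). MAFG, a DNA-binding partner of NRF2, had a log2 fold change of -0.21 (adjusted p = 0.017). It missed the threshold with library size only, in DESeq2, and without CBX8 KO replicate 2 or 3 or WT CBX8 re-expression replicate 2, with an adjusted p of up to 0.0996. Of 29 tested genes that NRF2 is known to activate, other than the members, 23 passed as lower and 0 as higher. That is 79.3% lower, against 6.63% of all genes and 18.3% of those with a mean of at least 100 CPM. Not all genes of the list reach that level. The median of the list was -0.38. This pattern was known from these libraries when the list was written, so it is no independent evidence. GCLC, the catalytic subunit of glutathione synthesis, went from 239.5, 231.0 and 221.0 CPM to 114.7, 118.2 and 120.4 CPM (-0.97). Its partner GCLM went from 330.5 to 199.7 CPM (-0.73), the ferritin light chain FTL from 6385 to 4069 CPM (-0.65) and SRXN1, sulfiredoxin, from 29.27 to 18.79 CPM (-0.64).

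Neighbors of the loci that passed the threshold differed by less than AKR1B10 and the AKR1C genes. Most of them stood by AKR1A1, as did 12 of the 18 tested neighbors. Of 44 symbols with a start within 500 kb of the 3 loci, members left out, 18 were tested, and 4 passed as lower (22.2%, against 6.63% of all genes) and 0 as higher. Around the AKR1C cluster, 1 of 3 tested genes passed: ASB13 had 13.88, 16.28 and 14.85 CPM in CBX8 KO, and 10.58, 12.68 and 11.79 CPM once CBX8 was re-expressed (log2 fold change -0.36, adjusted p = 0.046). It missed the threshold in 9 of 13 alternatives, among them the fits without any 1 library other than CBX8 KO replicate 1, with an adjusted p of up to 0.208 without CBX8 KO replicate 2. Around the AKR1B cluster, 0 of 3 passed in edgeR, 1 of them with an unadjusted p under 0.05. Around AKR1A1, which itself overlapped between conditions, 3 of 12 passed as lower. PRDX1, a peroxiredoxin and itself on the NRF2 list, fell from 1118, 1136 and 1163 CPM to 940.1, 917.1 and 889.0 CPM (-0.32, adjusted p = 3.7e-05). MMACHC, a cobalamin enzyme whose span overlaps that of PRDX1, fell from 501.0 to 394.2 CPM (-0.35, adjusted p = 8.5e-06), and the strand setting that would separate their reads is not given in the sources used here. TMEM69 fell from 79.38 to 65.97 CPM (-0.27, adjusted p = 0.0039).

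**Figure D5:**
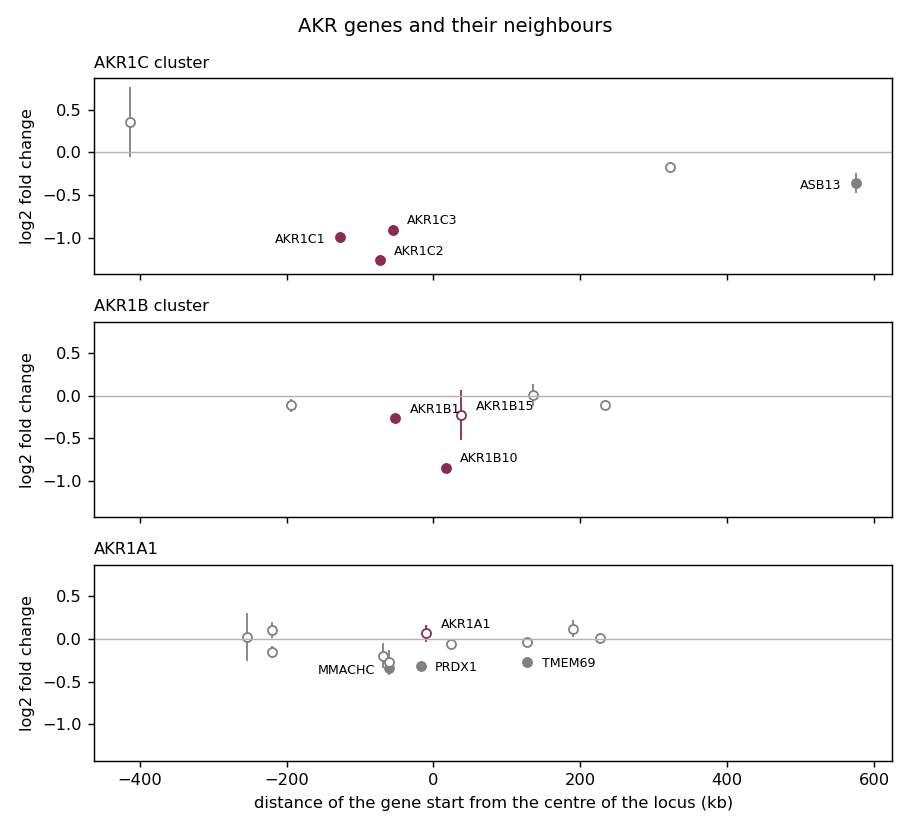
Log2 fold change with its standard error (bars) against the distance of the gene start from the center of the locus in kb, for the AKR1C cluster, the AKR1B cluster and AKR1A1. Members are purple and neighbors grey, filled where FDR < 0.05. The AKR1C genes and AKR1B10 lie lower than every tested neighbor.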

How the data were processed

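RNA-seq was analysed for 6 libraries, 3 CBX8 KO and 3 WT CBX8 re-expression, grouped by their titles. The authors enriched poly(A) RNA, sequenced paired-end reads of 100 bases, trimmed adapters with Trimmomatic and aligned reads to hg38 with HISAT2 on Galaxy, and deposited unnormalized counts per gene symbol. The annotation, the strand setting, the program that counted reads and all versions are not given in the sources used here. Whether libraries of 1 condition are separate cultures is not in the labels, so each SD, standard error and p-value describes spread between libraries. Counting error only is covered by the limit given for a count of 0.

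In R 4.3.3, 14461 genes passed filterByExpr of edgeR 4.0.16, counts were scaled by TMM, and the conditions were compared with the quasi-likelihood test of edgeR (glmQLFTest), with no other term. Benjamini-Hochberg adjustment ran over all genes tested, at a threshold of FDR < 0.05 after the study's methods. Standard errors were derived from the log2 fold change and its F statistic. Libraries of a condition differed by more than sampling noise (chi-square per degree of freedom of 2.055 to 3.093), so none was merged. Alternatives were RLE scaling, library size only, DESeq2 1.42.0, limma voom (limma 3.58.1), 2 other filters, FDR < 0.01, a replicate block, and 6 fits that each leave out 1 library.

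The members, lists and tests were chosen with earlier results of these data known. Named genes are the members, CBX8, tested symbols beginning with AKR, in each list the genes called at FDR < 0.05 (at most the 4 with the largest change) and the gene with the highest CPM, called neighbors, and the 3 genes nearest in pattern to AKR1B10 and AKR1C2. Loci, coding sequences and 100-base windows came from GENCODE release 44, aligned with Biopython 1.88, and upstream sequences from RefSeq (GRCh38.p14). RefSeq windows were used for AKR1A1, AKR1B1, AKR1C1, AKR1C2, AKR1C3 and AKR1C4. Protein sequences were not used here.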

Additional observations from a re-analysis of the deposited data

How the results depend on the processing

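The 5 members lower at FDR < 0.05 numbered 5 under every alternative run as well, a description only, since they were chosen on this contrast. Log2 fold changes ranged from -1.31 to -1.21 for AKR1C2, -1.05 to -0.91 for AKR1C1, -0.96 to -0.85 for AKR1C3, -0.88 to -0.79 for AKR1B10 and -0.32 to -0.21 for AKR1B1. Of 116 fits of members and summed rows, 1 changed direction, AKR1A1 without CBX8 KO replicate 1 (-0.0207, with 0.159 at the other end of the fits that leave out 1 library). Over all genes, 959 were lower and 901 higher. These were 592 and 1400 with library size only, where the median of all genes was 0.06 and 29.7% of calls were lower (51.6% with TMM), 569 and 489 at FDR < 0.01, and 695 and 502 in DESeq2. With 1 library left out they lay between 635 and 851 and between 593 and 792, the lowest of both without WT CBX8 re-expression replicate 2. Over the lists other than NRF2, with the neighbors of the loci included (80 genes tested), 16 were lower and 4 higher. Over all genes, 6.63% were lower and 6.23% higher. Of the 16 lower genes, 4 were neighbors, among them PRDX1, which is also on the NRF2 list. DESeq2 left 12 of the 80 lower and 2 higher. The lower count was also 12 with library size only, at FDR < 0.01, and without CBX8 KO replicate 2 or 3 or WT CBX8 re-expression replicate 1 or 2. Of 414 fits of the other genes named by the rule, 35 lost the call, for ASB13, KHK, PTGS2, TBXAS1, MAFG and HAGH, and 6 changed direction, none in a gene that passed: AKR7A2 (0.0431 with library size only, -0.0874 to 0.0698 with 1 library left out), GLO1 (0.027 with library size only) and RXRA (-0.0065 with no filter, -0.0405 to 0.044 with 1 library left out). The cause was not tested. The labels number the libraries 1 to 3 in each condition, but same-numbered libraries did not deviate together (r of -0.144, -0.182 and -0.115 over 10353 genes), so the numbers were not taken as pairs. With the replicate block, 766 genes were lower and 739 higher, and 5 members. Depth limits AKR1B15 and AKR1C4, and the split of reads among the AKR1C genes rests on a counting step that is not known.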
